A study of Homo sapiens with 8 samples.

Results

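The genes described here are 39 genes of the megakaryocyte and the platelet, taken by symbol from a table of 25435 gene symbols. All 39 symbols were in the table, and 34 had enough counts to be tested. They cover adhesion receptors, receptors for soluble agonists, granule and secreted proteins, eicosanoid enzymes, the cytoskeleton and signalling proteins. Messenger RNA was sequenced from SET-2, an established human line from an essential thrombocythemia that had turned into a megakaryoblastic leukemia, and which carries an activating JAK2 mutation in every group. Cells received, by a lentiviral vector with a GFP marker, a CRISPR guide against the splicing factor ZRSR2 (the knockout, 4 libraries) or a non-targeting guide (the control, 4 libraries). Each genotype had 2 guides, each used in 2 experiments, and the protocol places RNA extraction at day 20 for the first biological replicate and at day 25 for the second, taken here to be experiments 1 and 2. Libraries 1 and 2 of each genotype are guides 1 and 2 of experiment 1, and libraries 3 and 4 are guides 1 and 2 of experiment 2. Nothing in the labels calls the transduced cells clones, and cultures beyond the 2 experiments are not described, so p-values measure the spread between these libraries. Totals ran from 31106042 to 71521173 expected counts, the deepest being control library 3. ZRSR2 itself was at 18.7 to 29.4 CPM (counts per 1000000 counts of a library) in the knockout libraries and at 37.9 to 41.1 CPM in the controls, with no overlap.

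Megakaryocytes are the marrow cells from which platelets bud. They build the platelet's surface receptors, fill its alpha and dense granules, and extend proplatelets on a scaffold of a lineage-specific tubulin. On the platelet, GPIb-IX-V holds on to von Willebrand factor, GPVI reads collagen, thrombin and ADP act through G-protein-coupled receptors, and these signals open the integrin alphaIIb-beta3, which binds fibrinogen. In this lineage the genes are known targets of GATA1 with its partner FOG1, of ETS factors such as FLI1, of RUNX1 and of NFE2.

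Promoter sequence is shown for the gene with the highest level, ITGA2B, for 2 subunits of the von Willebrand factor receptor that moved in opposite directions between experiments, GP9 and GP5, and for 5 other genes that changed between experiments, picked after their values were seen from those with 1 start in RefSeq. Each line runs 5′ to 3′ on the gene's strand, from 200 bases before the RefSeq start through the first 30 bases from it (GRCh38.p14). The GP5 start is RefSeq's own and was not found among GENCODE starts.
ITGA2B, chr17:44389620-44389849, minus strand: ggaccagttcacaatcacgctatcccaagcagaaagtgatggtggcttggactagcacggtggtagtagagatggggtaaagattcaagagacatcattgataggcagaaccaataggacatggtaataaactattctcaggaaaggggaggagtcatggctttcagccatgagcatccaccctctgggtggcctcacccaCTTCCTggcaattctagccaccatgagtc
GP9, chr3:129060579-129060808, plus strand: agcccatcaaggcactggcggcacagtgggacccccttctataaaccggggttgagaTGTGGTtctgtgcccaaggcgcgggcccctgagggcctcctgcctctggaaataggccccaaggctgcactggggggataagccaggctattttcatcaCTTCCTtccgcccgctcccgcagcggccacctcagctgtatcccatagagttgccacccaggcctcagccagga
GP5, chr3:194399237-194399466, minus strand: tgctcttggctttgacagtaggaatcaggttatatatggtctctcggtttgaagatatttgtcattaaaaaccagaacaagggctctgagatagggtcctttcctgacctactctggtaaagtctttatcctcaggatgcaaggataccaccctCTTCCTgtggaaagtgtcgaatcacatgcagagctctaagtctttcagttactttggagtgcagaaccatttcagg
GP6, chr19:55038235-55038464, minus strand: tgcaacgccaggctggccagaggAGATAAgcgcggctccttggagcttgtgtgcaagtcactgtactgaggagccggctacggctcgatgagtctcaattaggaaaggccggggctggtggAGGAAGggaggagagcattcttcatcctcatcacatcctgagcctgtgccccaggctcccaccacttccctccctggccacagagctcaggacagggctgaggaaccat
THBS1, chr15:39580879-39581108, plus strand: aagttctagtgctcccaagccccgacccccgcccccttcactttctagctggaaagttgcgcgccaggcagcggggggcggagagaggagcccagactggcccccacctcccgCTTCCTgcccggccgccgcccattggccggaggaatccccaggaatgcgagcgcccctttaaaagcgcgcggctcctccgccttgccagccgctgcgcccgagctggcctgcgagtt
F2RL3, chr19:16888799-16889028, plus strand: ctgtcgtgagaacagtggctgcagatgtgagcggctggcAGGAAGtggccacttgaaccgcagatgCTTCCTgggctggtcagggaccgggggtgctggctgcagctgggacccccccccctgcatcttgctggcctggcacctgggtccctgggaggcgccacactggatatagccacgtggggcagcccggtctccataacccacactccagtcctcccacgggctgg
TUBB1, chr20:59019229-59019458, plus strand: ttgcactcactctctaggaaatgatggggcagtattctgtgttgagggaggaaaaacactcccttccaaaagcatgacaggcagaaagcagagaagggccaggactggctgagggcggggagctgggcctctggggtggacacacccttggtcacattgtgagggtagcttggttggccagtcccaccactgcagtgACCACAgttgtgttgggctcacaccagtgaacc
SELP, chr1:169630095-169630324, minus strand: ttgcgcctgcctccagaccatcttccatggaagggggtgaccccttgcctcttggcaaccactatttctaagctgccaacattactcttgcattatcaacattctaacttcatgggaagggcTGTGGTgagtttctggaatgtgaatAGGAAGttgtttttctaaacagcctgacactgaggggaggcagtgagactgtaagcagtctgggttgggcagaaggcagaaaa
Capitals mark matches, on either strand, to 5 motifs. Factors of the GATA family were given AGATAA. Factors of the ETS family were given the motif AGGAAG and, as a second form, the motif CCGGAAG, and both end in GGAAG. For RUNX1 the letters were TGTGGT, and for NFE2 and AP-1 the letters were TGAGTCA. RefSeq promoter windows of 300 bases were at hand for 32 of the 39 genes, 47 windows in all. AGGAAG was in 28 of them (59.6%), against 33.6% of all 35116 windows. TGTGGT was in 12 (25.5%, against 13.1%) and AGATAA in 5 (10.6%, against 10.3%). TGAGTCA was in 3 (6.38%, against 4.95%) and CCGGAAG in 2 (4.26%, against 10.3%). These matches describe letters in a window. Among the genes shown, ITGA2B, GP5, THBS1 and F2RL3 had ETS matches as their sole marked letters, GP6 had a GATA and an ETS match, SELP and GP9 had a RUNX and an ETS match, and TUBB1 had a RUNX match at its start.

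The integrin subunit ITGA2B was the most abundant of the 39 genes in SET-2 cells. The platelet chemokines were at the low end, along with VWF, GP5, CLEC1B and others. Together the 39 genes took 0.447% to 0.541% of a library's counts, and ITGA2B alone took 41.4% to 54.2% of that. To compare genes, counts were divided by the length of the merged exons in GENCODE 29 and scaled to sum to 1000000 per library. On this length-scaled level ITGA2B was at 1796 ± 178 (SD, n = 8), at the 99.8th percentile of the 23630 symbols with a length. SRGN, which encodes serglycin, the proteoglycan that packs granule cargo, followed at 1237 ± 205. The levels of these 2 genes were far above the next, PTGS1 (cyclooxygenase 1) at 179 ± 33.9.

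After PTGS1 came GP1BA at 165 ± 11.6, ITGB3 at 161 ± 35.7, LAT at 134 ± 15, GP9 at 124 ± 26, CD36 at 116 ± 40.3, F2RL3 at 113 ± 54.5 and RASGRP2 at 109 ± 43.6, on the same length-scaled level. Neighbours in that order differed by less than the larger of their SDs. The 2 subunits of alphaIIb-beta3 were thus unequal in RNA, with ITGB3 at 0.0499 to 0.112 of ITGA2B per length. With the longest transcript as the length, 9 of the same 10 genes led. ITGB3 and LAT each share about as many exon bases as not (51.6% and 47.7%) with another GENCODE 29 gene on the same strand, no value of which was used here, so their counts depend on how such reads were assigned.

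At the low end, PF4 was at 11.2 ± 4.49 and PPBP at 3.55 ± 1.36 on the length-scaled level, the 61.1st and 50.8th percentiles. Both encode chemokines that fill the alpha granules of platelets. By mean level, VWF (8.3 ± 3.76) and GP5 (7.88 ± 4.52) were also below PF4. CLEC1B (2.79 ± 0.785) and TMEM40 (1.16 ± 0.298) were below PPBP as well. The percentiles include symbols without counts in any library. PF4 rested on 45 to 143 counts per library and PPBP on 12 to 55. PF4 and its copy PF4V1 are 90.4% identical over 488 aligned transcript bases, so reads can be split between them. The other 5 genes were not tested. GP1BB, the beta subunit of GPIb, had 0 counts in all 8 libraries, but all of its 1553 exon bases are shared with the read-through gene SEPT5-GP1BB, which was at 0.162 to 0.271 CPM. PF4V1 had 1 to 4 counts, TREML1, a receptor of the alpha granule membrane, 1 to 6, and ALOX12, the platelet lipoxygenase, 0 to 10. P2RY12, the ADP receptor that antiplatelet drugs block, had 1 count in control library 3, 2 in control library 4 and 0 in the rest. A count of 0 allows a level of up to 3 counts, or 0.0428 to 0.0971 CPM. PF4V1, TREML1, ALOX12 and P2RY12 were therefore near or below what these libraries can measure. For GP1BB, whether reads were assigned to the read-through gene was not tested, so its 0 is a listed value and not a measured absence.

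**Figure D1:**
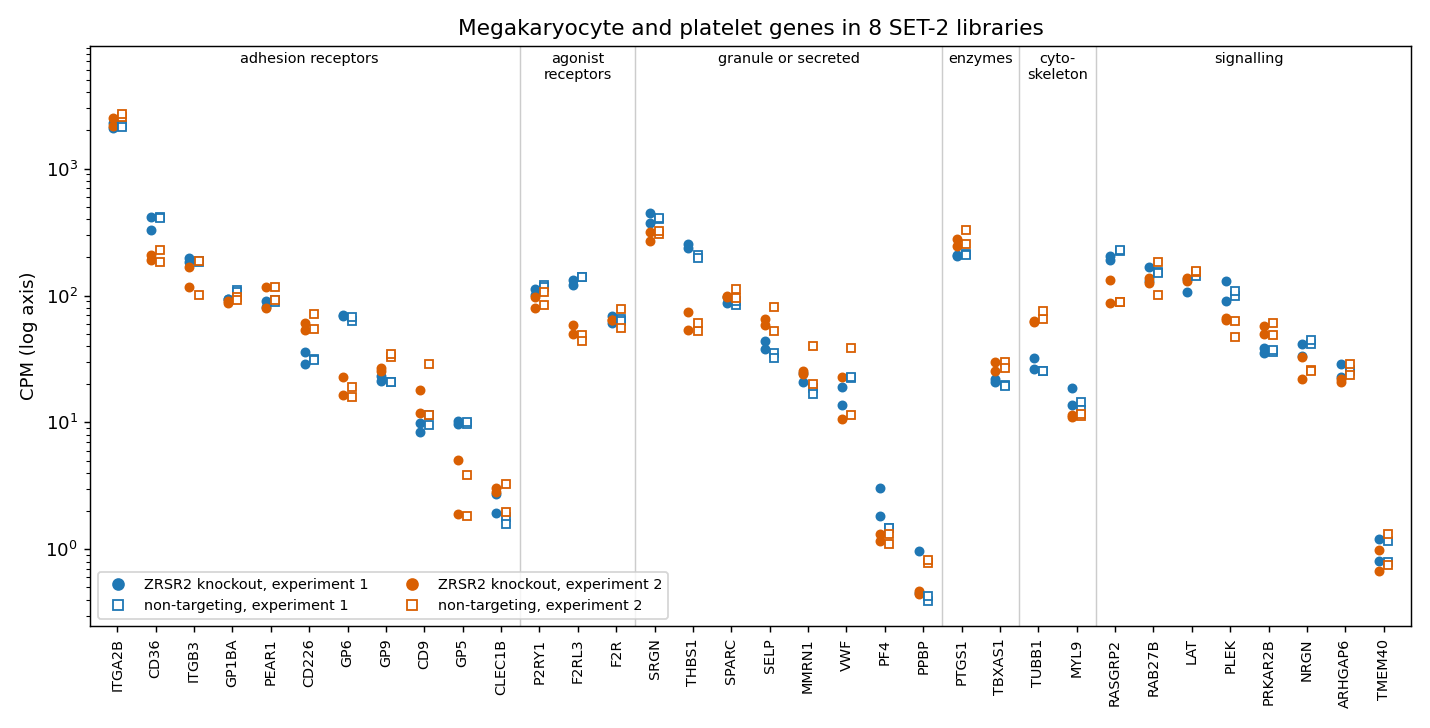
CPM of the 34 tested genes in each of 8 libraries on a log axis, grouped by role, with filled circles for ZRSR2 knockout and open squares for non-targeting, and blue for experiment 1 and orange for experiment 2. ITGA2B lies at 2085 CPM or more in all libraries, PPBP below 1 CPM, and THBS1, GP6, GP5 and F2RL3 separate by color and not by symbol.

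Experiment 2 was set against experiment 1 first, since libraries of both experiments are pooled when genotypes are compared over all 8. THBS1, GP6, GP5, F2RL3 and RASGRP2 fell by 2-fold or more from experiment 1 to experiment 2, and TUBB1 rose by 2-fold or more. At an adjusted p under 0.05 in edgeR's quasi-likelihood test, 21 of the 34 tested genes changed (61.8%), against 58.2% of all 14898 genes, so the share was near the background. Of the 21, 9 rose (26.5%, against 29.6% of all genes) and 12 fell (35.3%, against 28.6%). At least 2-fold changes numbered 6 (17.6%, against 14.2%). The median log2 fold change was −0.05 for the 34 genes and 0.00 for all genes, and the median absolute value was 0.45 against 0.371. The 2 experiments did not overlap for 18 of the 34 genes (52.9%), against 56% of all genes. The experiment and the day of RNA extraction cannot be told apart, and in bulk RNA fewer cells of a type cannot be told apart from less RNA per cell.

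**Figure D2:**
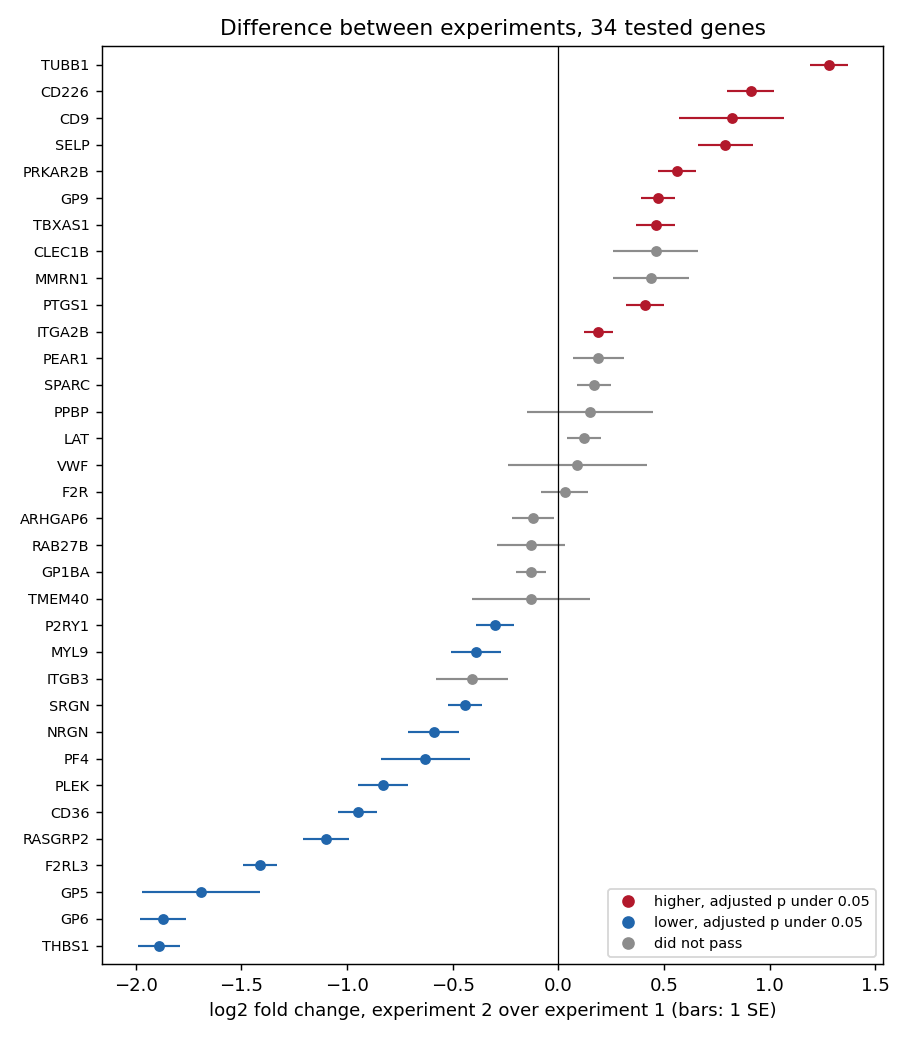
Log2 fold change of each of the 34 tested genes, experiment 2 over experiment 1, with bars of 1 SE, in red or blue where edgeR's adjusted p is under 0.05. TUBB1 stands at the top at 1.28, and THBS1, GP6 and GP5 at the bottom between −1.89 and −1.69.

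Among the adhesion receptors, 11 of 13 were tested, of which 4 rose (ITGA2B, GP9, CD9, CD226) and 3 fell (GP5, GP6, CD36). GP6, the collagen receptor, was at 68.9 and 70.8 CPM in knockout libraries 1 and 2 and at 63.5 and 67.9 CPM in the controls of experiment 1. In experiment 2 it was at 16.5 and 23 CPM in the knockout libraries and at 15.8 and 19 CPM in the controls. Every library of experiment 2 was below every library of experiment 1, and the log2 fold change was −1.87 (SE 0.11, adjusted p = 9.06e-07, edgeR). GP6 signals through the chain encoded by FCER1G, which also fell, by 0.83 on the log2 scale (SE 0.09).

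The subunits of GPIb-IX-V did not move together. GP5 was at 9.68 to 10.3 CPM in the 4 libraries of experiment 1. In experiment 2 it was at 1.89 and 5.06 CPM in knockout libraries 3 and 4 and at 1.82 and 3.82 CPM in control libraries 3 and 4. Its experiments did not overlap, with a log2 fold change of −1.69 (SE 0.28, adjusted p = 0.000451), and in experiment 2 the guide 2 libraries were above the guide 1 libraries in both genotypes. GP9 was at 23.2, 21.1, 20.9 and 20.9 CPM in experiment 1 (knockout, then control) and at 27, 25.4, 32.9 and 34.9 CPM in experiment 2. All 4 libraries of experiment 2 were above those of experiment 1, and GP9 rose by a log2 fold change of 0.47 (SE 0.08, adjusted p = 0.000618). GP1BA, the ligand-binding chain, was at 87.6 to 94.7 CPM in the knockout libraries and 92.2 to 110 CPM in the controls, and its difference between experiments was −0.13 (SE 0.07, adjusted p = 0.1). Without control library 3, the GP1BA difference was −0.15 with an adjusted p of 0.0361. Relative to GP1BA per length, GP5 went from 0.0625 to 0.0771 in experiment 1 to 0.0132 to 0.0395 in experiment 2, and GP9 from 0.537 to 0.688 to 0.788 to 1.06.

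The 2 chains of the fibrinogen receptor also differed. ITGA2B was at 2085 to 2294 CPM in experiment 1 and at 2178, 2510, 2566 and 2708 CPM in knockout libraries 3 and 4 and control libraries 3 and 4. Its ranges overlapped, and its log2 fold change was 0.19 (SE 0.07, adjusted p = 0.0323). That call did not hold with the guide as a replicate block (adjusted p = 0.0613), in DESeq2 with that block (0.0736), or without knockout library 2 (0.121) or 4 (0.113) or control library 1 (0.0841), 2 (0.123) or 4 (0.0589). ITGB3 was at 185 to 199 CPM in experiment 1, and in experiment 2 at 116 and 167 CPM in the knockout and 101 and 187 CPM in the control libraries. Its log2 fold change was −0.41 (SE 0.17, adjusted p = 0.0582), and with the guide as a replicate block it was −0.45 (SE 0.13, adjusted p = 0.00729). ITGB3 also passed without knockout library 4 (−0.55, adjusted p = 0.0324) and without control library 4 (−0.66, adjusted p = 0.00119), the 2 guide 2 libraries of experiment 2.

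CD36, a receptor for thrombospondin and lipids, was at 329 to 415 CPM in experiment 1 and at 184 to 228 CPM in experiment 2, and fell by 0.95 on the log2 scale (SE 0.09, adjusted p = 1.53e-05). CD226, an adhesion receptor of the immunoglobulin family, was at 28.9 to 35.9 CPM in experiment 1 and at 60.4, 53.8, 54 and 72.1 CPM in experiment 2. It rose by 0.91 (SE 0.11, adjusted p = 4.96e-05) with no overlap. The tetraspanin CD9 was at 8.41 to 11.5 CPM in experiment 1 and at 11.9, 18.1, 11.4 and 29 CPM in experiment 2, with overlapping ranges and a log2 fold change of 0.82 (SE 0.25, adjusted p = 0.0153). The CD9 call was lost without knockout library 2 (0.77, adjusted p = 0.0558) and without knockout library 4 (0.66, adjusted p = 0.0756). CLEC1B, the receptor for podoplanin, differed by 0.46 (adjusted p = 0.0759) and PEAR1, a receptor engaged on platelet contact, by 0.19 (adjusted p = 0.192). CLEC1B passed without control library 3 (0.63, adjusted p = 0.0151) and PEAR1 without knockout library 3 (0.32, adjusted p = 0.0251).

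Of the receptors for soluble agonists, 3 of 4 were tested, 2 fell and none rose. F2RL3, the thrombin receptor PAR4, was at 133, 120, 140 and 141 CPM in experiment 1 (knockout, then control) and at 49.8, 59, 48.9 and 43.9 CPM in experiment 2. It fell by 1.41 on the log2 scale (SE 0.08, adjusted p = 8.39e-07), with no overlap. F2R, the other thrombin receptor PAR1, was at 55.2 to 78.5 CPM over all libraries with a difference of 0.03 (SE 0.11, adjusted p = 0.85). P2RY1, the ADP receptor that starts platelet shape change, was at 101 to 121 CPM in experiment 1 and 80.2 to 106 CPM in experiment 2, and fell by 0.30 (SE 0.09, adjusted p = 0.0181). The P2RY1 call was lost without knockout library 1 (adjusted p = 0.081) or 3 (0.0865) or control library 1 (0.0665).

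Of 9 granule and secreted proteins 8 were tested, of which SELP rose and PF4, THBS1 and SRGN fell. THBS1, thrombospondin 1, was at 238 and 253 CPM in the knockout and 209 and 197 CPM in the control libraries of experiment 1. In experiment 2 it was at 53.4 and 73.8 CPM in the knockout and 52.7 and 61 CPM in the control libraries. That was the largest change of the 34 genes, with a log2 fold change of −1.89 (SE 0.10, adjusted p = 6.34e-07) and no overlap. SELP, the granule membrane receptor P-selectin, was at 38.1, 43.8, 35.2 and 32.4 CPM in experiment 1 and at 64.9, 59.1, 52.1 and 80.9 CPM in experiment 2. All libraries of experiment 2 lay above those of experiment 1, with a log2 fold change of 0.79 (SE 0.13, adjusted p = 0.000354). SRGN was at 444, 375, 400 and 411 CPM in experiment 1 and at 315, 267, 304 and 320 CPM in experiment 2, and fell by 0.44 (SE 0.08, adjusted p = 0.000773).

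PF4 was at 1.83 and 3.03 CPM in the knockout and 1.46 and 1.46 CPM in the control libraries of experiment 1, and at 1.17, 1.31, 1.1 and 1.32 CPM in experiment 2. It fell by 0.63 (SE 0.21, adjusted p = 0.0259), and knockout library 2 stood highest. The PF4 call was lost without knockout library 2 (−0.42, adjusted p = 0.132) or 3 (0.0691), without control library 1 (0.0705), 2 (0.0743) or 3 (0.0709), and in DESeq2 with the replicate block (0.0687). PPBP was at 0.388 to 0.975 CPM in experiment 1 and 0.445 to 0.824 CPM in experiment 2, a difference of 0.15 (SE 0.30, adjusted p = 0.679). VWF, the adhesive ligand of GPIb, was at 19, 13.7, 22.2 and 22.9 CPM in experiment 1 and at 10.7, 22.7, 11.5 and 38.8 CPM in experiment 2. Its experiments overlapped, with a difference of 0.09 (SE 0.33, adjusted p = 0.83) that was −0.06 with the replicate block. MMRN1, multimerin, which binds factor V in the granule, differed by 0.44 (adjusted p = 0.0538) and SPARC, a secreted matrix protein, by 0.17 (adjusted p = 0.0913). MMRN1 was called by DESeq2 (0.45, adjusted p = 0.0144), and without control library 3 both MMRN1 (0.66, adjusted p = 0.000229) and SPARC (0.23, adjusted p = 0.0142) passed.

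Both tested enzymes of eicosanoid synthesis rose. PTGS1 was at 206 to 211 CPM in experiment 1 and at 246, 278, 256 and 328 CPM in experiment 2, a log2 ratio of 0.41 (SE 0.09, adjusted p = 0.0019). TBXAS1, thromboxane synthase, was at 19.2 to 22.1 CPM and 25.4 to 30 CPM, a log2 ratio of 0.46 (SE 0.09, adjusted p = 0.0013). The experiments did not overlap for either gene. In the cytoskeleton pair, TUBB1, the beta-1 tubulin of proplatelets, was at 26.3, 31.9, 25.4 and 25.2 CPM in experiment 1 and at 62.6, 61.4, 64.9 and 75.5 CPM in experiment 2. It rose by 1.28 (SE 0.09, adjusted p = 1.82e-06), the largest rise of the 34. TUBB1 shares 34% of its exon bases with ATP5F1E on the opposite strand (ATP5E in the table, at 3.27 to 6.37 CPM), and use of strand in counting is not given in the sources used here. MYL9, a myosin light chain, was at 12.6 to 18.7 CPM and 11.1 to 11.7 CPM, and fell by 0.39 (SE 0.12, adjusted p = 0.0145). The MYL9 call was lost without knockout library 2 (−0.26, adjusted p = 0.0766) and without control library 1 (−0.34, adjusted p = 0.0737).

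Of 8 genes placed in the signalling group, all tested, PRKAR2B rose and RASGRP2, PLEK and NRGN fell. The group is a loose one that also takes in RAB27B and TMEM40. RASGRP2, the exchange factor that switches on RAP1 before integrin opening, was at 204, 191, 223 and 230 CPM in experiment 1 and at 87.1, 133, 88.4 and 89.4 CPM in experiment 2. It fell by 1.10 (SE 0.11, adjusted p = 1.93e-05), and knockout library 4 was the highest of experiment 2. PLEK, pleckstrin, a substrate of protein kinase C, was at 129, 90, 98.7 and 108 CPM and then at 64.1, 66.6, 47.2 and 63 CPM, and fell by 0.83 (SE 0.12, adjusted p = 0.000198). NRGN, a calmodulin-binding protein, was at 33.3 to 44.3 CPM and then at 22.1 to 32.8 CPM, and fell by 0.59 (SE 0.12, adjusted p = 0.0019). PRKAR2B, a regulatory subunit of protein kinase A, was at 35.3 to 38.4 CPM and then at 48.8 to 61 CPM, and rose by 0.56 (SE 0.09, adjusted p = 0.000474). None of these 4 genes overlapped between experiments. RAB27B, a GTPase of granule transport, TMEM40, the adaptor LAT and ARHGAP6, a GTPase-activating protein, differed by −0.13, −0.13, 0.12 and −0.12, with adjusted p-values of 0.258 to 0.717. Without control library 4, RAB27B passed (−0.38, adjusted p = 0.00602).

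Knockout was compared with control to ask whether ZRSR2 loss shifts the platelet genes of this line. None of the 34 tested genes passed: edgeR called 0 with genotype alone, as it did over all genes (0%), and 0 with the experiment as a replicate block. DESeq2 called 0 of the 34 in either design. Shares of all genes called at the adjusted threshold were taken for edgeR without the block only. At an unadjusted p under 0.05, edgeR had 1 of the 34 with genotype alone (LAT, against 0.597% of all genes) and 3 with the block (GP1BA, THBS1 and LAT, against 4.63%). The median log2 fold change over the 34 was −0.05, with 10 above and 24 below 0, against a median of 0.00 for all genes. The share of all genes below 0 was not counted. Within experiment 1, 22 of the 34 were above and 12 below 0, with a median of 0.02. Within experiment 2, 9 were above and 25 below 0, with a median of −0.09. Over all 8 libraries, values ran from −0.53 for VWF to 0.46 for PF4. With the block, the 95% interval of the difference lay within 1.5-fold in either direction for 27 of the 34 genes, and within 2-fold for all but VWF. Genes with wider intervals than 1.5-fold were GP5, PF4, PPBP, VWF, CLEC1B, CD9 and TMEM40.

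The abundant receptors had narrow intervals. With the replicate block the ITGA2B difference was −0.08 (95% interval −0.23 to 0.07) and that of GP1BA was −0.14 (−0.27 to −0.01, adjusted p = 1). GP9 was at −0.15 (−0.37 to 0.07), GP6 at 0.13 (−0.09 to 0.36) and ITGB3 at 0.01 (−0.33 to 0.35). THBS1 was at 0.22 (0.01 to 0.43, adjusted p = 1) and TUBB1 at 0.01 (−0.21 to 0.22). These intervals are not adjusted for the number of genes.

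LAT, the adaptor that carries the collagen receptor's signal to phospholipase C, had the smallest p of the 34. It was at 135, 106, 130 and 138 CPM in knockout libraries 1 to 4 and at 152, 142, 154 and 155 CPM in the controls. All 4 knockout libraries were below the lowest control. Over all 8 libraries, LAT was the 1 gene of the 34 whose genotypes did not overlap in either direction, against 0.678% of all genes. The LAT log2 fold change was −0.25 (SE 0.10, adjusted p = 1, edgeR), with an adjusted p of 0.862 with the replicate block and 0.546 in DESeq2 with that block. VWF was at −0.53 (SE 0.37) and GP1BA at −0.14 (SE 0.08) with genotype alone. Among genes with a positive difference, the smallest p-values with genotype alone were those of PF4 (0.46, SE 0.33), CLEC1B (0.29, SE 0.27) and MYL9 (0.14, SE 0.19), each with an adjusted p of 1. CLEC1B was at 1.94, 2.73, 3.04 and 2.84 CPM in the knockout and 1.81, 1.59, 1.97 and 3.24 CPM in the control libraries, which overlapped. MYL9 was at 13.7, 18.7, 11.1 and 11.4 CPM against 14.4, 12.6, 11.2 and 11.7 CPM, and its difference was −0.04 without knockout library 2.

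**Figure D3:**
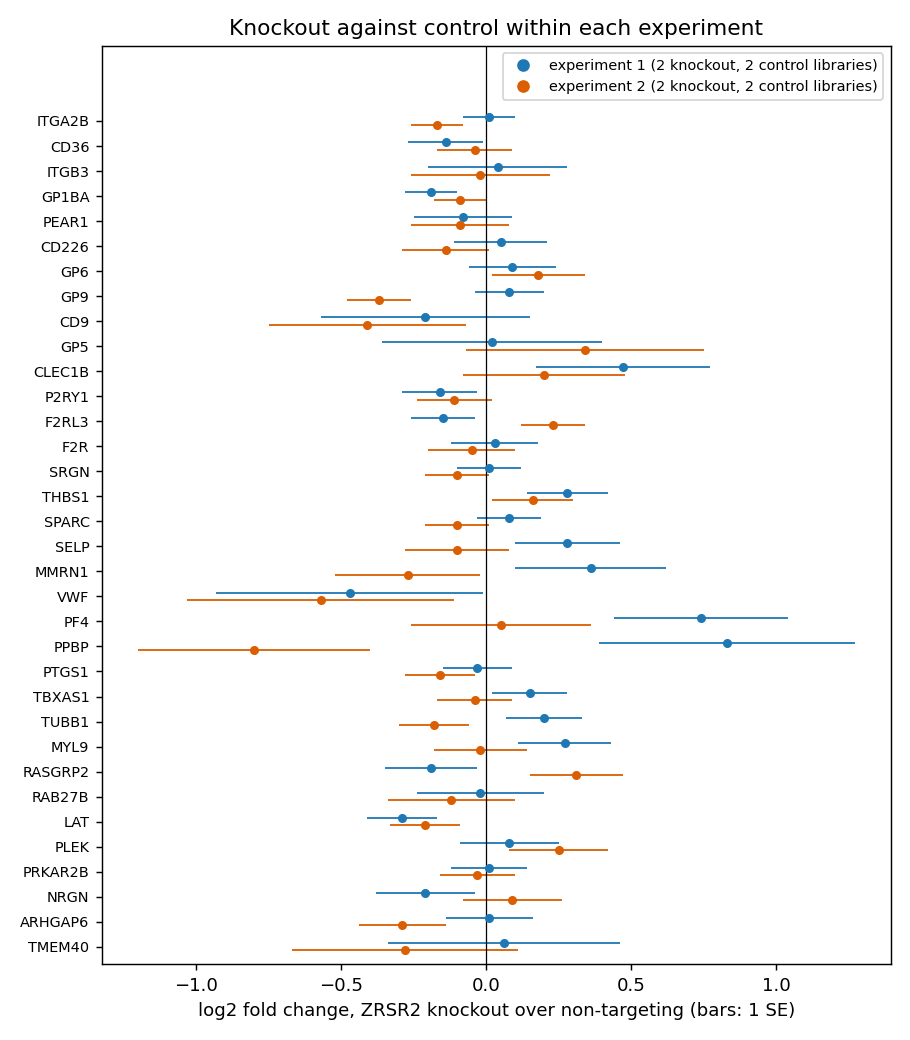
Log2 fold change of ZRSR2 knockout over non-targeting for each of the 34 tested genes within experiment 1 (blue) and experiment 2 (orange), with bars of 1 SE. Most points lie near 0, LAT is on the negative side in both experiments, and PPBP lies at 0.83 in one and at −0.80 in the other.

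Within single experiments, edgeR again called 0 of the 34 genes in each, against 0% of all genes. In experiment 1, 2 genes had an unadjusted p under 0.05 (PF4 at 0.74 and LAT at −0.29, against 2.05% of all genes). In experiment 2 it was 1 gene (GP9 at −0.37, against 4.33%). Knockout and control libraries did not overlap for 18 genes in experiment 1 (52.9%, against 36.4%) and for 9 in experiment 2 (26.5%, against 23.5%). GP1BA and LAT were lower in the knockout without overlap in each experiment. GP9, PPBP, TUBB1 and F2RL3 separated in both experiments, but in opposite directions. The share of all genes that separated in both was not counted. The difference of the knockout effect between experiments passed for 0 of 34 genes, and DESeq2 also called 0 in these comparisons. For that difference, 4 genes had an unadjusted p under 0.05 in edgeR (against 1.66% of all genes), each with an adjusted p of 1. They were PPBP (−1.63, SE 0.60), GP9 (−0.45, SE 0.16), RASGRP2 (0.50, SE 0.22) and F2RL3 (0.38, SE 0.16). PPBP was at 0.449 and 0.975 CPM in the knockout against 0.388 and 0.427 CPM in the control libraries of experiment 1, and at 0.473 and 0.445 CPM against 0.784 and 0.824 CPM in experiment 2.

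Guides were also taken one at a time, in comparisons that share the 4 control libraries. EdgeR called 0 of the 34 genes for ZRSR2 guide 1 against control, for guide 2 against control and for guide 1 against guide 2, each against 0% of all genes, and DESeq2 called 0 as well. With genotype and guide alone, the genes at an unadjusted p under 0.05 numbered 0 (against 0.222%), 1 (LAT, against 0.658%) and 0 (against 0.389%). With the replicate block these were 1 (PEAR1, against 2.79%), 4 (GP6, PF4, THBS1 and LAT, against 4.89%) and 3 (THBS1, PEAR1 and SRGN, against 2.73%). LAT was at −0.19 (SE 0.13) with guide 1 and −0.31 (SE 0.13) with guide 2. The difference between the guides was 0.12 (SE 0.15, adjusted p = 1).

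Inside experiment 2, many of the 34 genes were higher in the libraries of guide 2 than in those of guide 1, in both genotypes. This split was noticed after the values were seen and is given without a test. The guides are different sequences in the 2 genotypes and share only their number. Both guide 2 libraries lay above both guide 1 libraries for 15 of 34 genes (44.1%), against 17.5% of all genes, and below them for TBXAS1 alone (2.94%, against 19.7%). In experiment 1 they were above for 2 genes (5.88%, against 15.2%) and below for 4 (11.8%, against 13.4%). At least a 1.5-fold gap separated them in experiment 2 for GP5, VWF and CD9 (8.82%, against 1.91%), and in experiment 1 for 0 genes (against 0.47%). For VWF the guide 1 libraries of experiment 2 were at 10.7 and 11.5 CPM and the guide 2 libraries at 22.7 and 38.8 CPM. For ITGB3 they were at 116 and 101 CPM and at 167 and 187 CPM. One of the guide 1 libraries, control library 3, was the deepest at 71521173 counts, and the part of depth in this split was not tested.

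**Figure D4:**
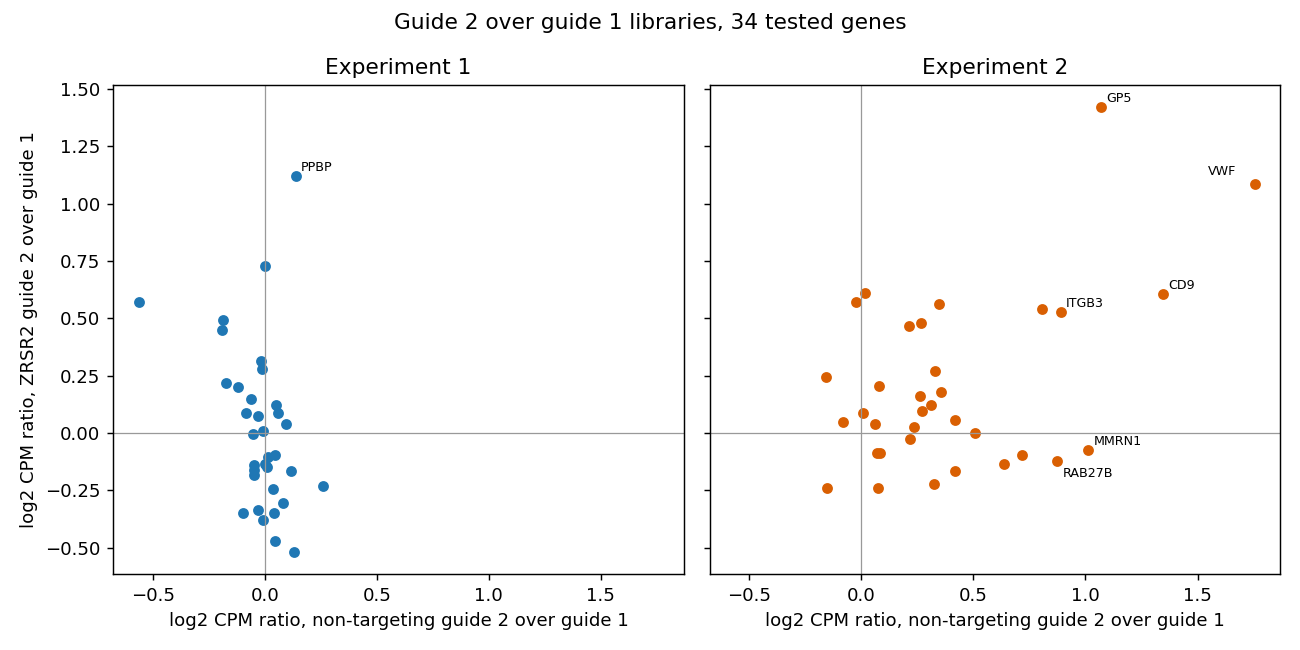
Log2 ratio of CPM in guide 2 over guide 1 libraries for the 34 tested genes, in the control (horizontal) and the knockout (vertical), for experiment 1 (left) and experiment 2 (right). In experiment 2 GP5, VWF, CD9 and ITGB3 lie far into the upper right, and in experiment 1 no gene does.

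Genes of the pathway were also taken from 5 lists, for the same contrast of experiment 2 with experiment 1. Of 12 transcription factors of megakaryocytes and stem cells, 1 rose and 3 fell, with a median of −0.01. FLI1, from 108 ± 5.21 to 130 ± 18.3 CPM (SD, n = 4), rose by 0.27 on the log2 scale (SE 0.10, adjusted p = 0.0367). RUNX1 fell by 0.62 and GFI1B, a repressor of the lineage, by 0.55. GATA1 was at 0.17 (adjusted p = 0.0684), NFE2 at 0.03 and TAL1 at 0.00. Of 20 genes of granule biogenesis and release, 9 rose and 4 fell, with a median of 0.16. LYST (0.58) and RAB27A (0.55) rose most, and DTNBP1 (−0.81) and HPS6 (−0.37) fell most.

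Of 16 cytoskeleton genes of proplatelet formation, none rose and 13 fell, with a median of −0.31. ZYX, zyxin, went from 362 ± 21.5 to 166 ± 16.9 CPM (SD, n = 4), a change of −1.13 (SE 0.09), and MYH9, the non-muscle myosin heavy chain of platelets, from 1674 ± 44.7 to 949 ± 76.7 CPM, a change of −0.82 (SE 0.07). RHOA, ROCK1 and WAS did not pass. TUBB1 thus rose in a comparison where no gene of this list did. Of 19 tested genes of signalling below the collagen receptor and of integrin activation, 6 rose and 6 fell, with a median of −0.16. C6orf25, the inhibitory receptor G6b, rose by 0.73 and PLA2G4A, the phospholipase that frees arachidonic acid, by 0.64, while FCER1G fell by 0.83 and SH2B3, an adaptor that restrains JAK2, by 0.58. Of 27 other platelet proteins, 8 rose and 10 fell, with a median of −0.13. That list also holds GP1BA, which is among the 39 genes, and FERMT3 (−0.57), which is in the signalling list too. ABCC3 (1.42) and F13A1 (1.25) rose most, and GUCY1A3 (−3.37) and PDE5A (−1.88), of the cyclic GMP pathway, fell most. Low levels lie behind 3 of these: F13A1 was at 0.223 ± 0.0931 and 0.539 ± 0.165 CPM, GUCY1A3 at 2.76 ± 0.333 and 0.297 ± 0.216 CPM, and PDE5A at 1.03 ± 0.292 and 0.269 ± 0.0985 CPM. Over all genes the median was 0.00, 29.6% rose and 28.6% fell. For knockout against control, edgeR called 0 genes in any of the 5 lists, with genotype alone and with the replicate block, and at an unadjusted p under 0.05 there were 0 in each list with genotype alone and 0 to 4 with the block.

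**Figure D5:**
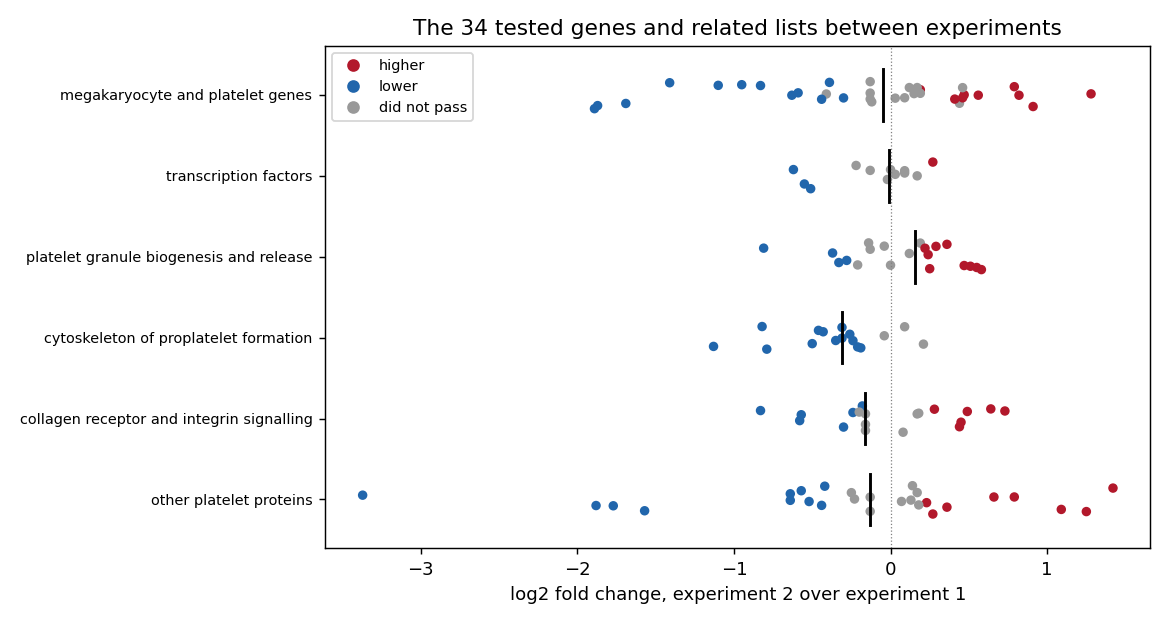
Log2 fold change, experiment 2 over experiment 1, for the 34 tested genes and for 5 related lists, 1 point a gene, in red or blue where edgeR's adjusted p is under 0.05, with a black bar at each list's median. The cytoskeleton list lies almost wholly below 0, with a median of −0.31, and the other medians lie between −0.16 and 0.16.

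Markers of other cell types differed between the experiments too. Over all tested genes, 29.6% were higher in experiment 2 and 28.6% lower. Summed CPM of 15 erythroid markers was 1621 to 1792 in experiment 1 and 1799 to 2553 in experiment 2. Of these 15, all tested, 8 were higher and 2 lower. Sums for 12 monocyte and granulocyte markers were 367 to 397 and 417 to 499. Most of it was LYZ, at 206 to 267 CPM over all libraries, and ITGAM, at 148 to 230 CPM. Of 6 tested, 2 were higher and 1 lower. MPO, S100A8 and S100A9 were each under 0.1 CPM in all libraries. Sums for 9 lymphoid markers were 136 to 147 and 250 to 359, most of it CD7. Of 5 tested, 3 were higher and 0 lower. MS4A1 was at 0. Sums for 6 stem and progenitor markers were 1022 to 1042 and 1337 to 1826. Of 4 tested, 2 were higher and 0 lower. CD34 went from 466 to 514 CPM to 838 to 1148 CPM. Sums for 7 endothelial markers were 669 to 682 and 880 to 1008. Of 6 tested, 1 was higher and 3 lower. TEK was at 0. In that list TIE1 went from 358 to 384 CPM to 641 to 805 CPM, and ESAM from 102 to 137 CPM to 52 to 66.7 CPM. Sums for 6 fibroblast markers, all tested, were 6.7 to 8.31 and 6.69 to 8.51, with 2 higher and 2 lower. The part of these in the results for platelet genes was not tested. Between genotypes, edgeR called 0 markers in any list. Erythroid sums were 1621 to 1854 in the knockout and 1745 to 2553 in the control. Control library 3 had the highest HBG2, at 1370 CPM. Knockout sums, then control sums, were 367 to 423 and 388 to 499 (monocyte and granulocyte), and 136 to 262 and 144 to 359 (lymphoid). They were 1033 to 1378 and 1022 to 1826 (stem and progenitor) and 676 to 955 and 669 to 1008 (endothelial). Fibroblast sums were 7.42 to 8.51 and 6.69 to 8.38. All of these ranges overlapped, but each pools both experiments, and the sums were not compared between genotypes within an experiment. In experiment 1, CD7 was at 103 and 110 CPM in the knockout and 112 and 111 CPM in the control libraries. In experiment 2 it was at 200 and 199 CPM in the knockout and 266 and 279 CPM in the control libraries. HBG2 (knockout against control) was at 741 and 790 against 857 and 839 CPM in experiment 1. Its values in experiment 2 were 950 and 853 against 1370 and 946 CPM.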

How the data were processed

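RNA was sequenced from 8 SET-2 libraries. The authors deposited RSEM expected counts per gene symbol, as the table's name says, already whole numbers. Per the submitters' processing notes, the tools were cutadapt 1.11 and RSEM 1.2.30 and the build hg19. Aligner, annotation and use of strand are not given in the sources used here. Columns were matched by the library number in each title, with 0 columns left over.

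Genes were filtered with filterByExpr on genotype (14898 kept, at least 99.966% of each library's counts), scaled with TMM and tested with edgeR 4.0.16 quasi-likelihood F tests (R 4.3.3), p-values adjusted by Benjamini-Hochberg over the 14898 genes, and 0.05 as the threshold. SEs come from the F statistic. Genotype was tested alone. Guides were tested in a fit whose groups were ZRSR2 guide 1, ZRSR2 guide 2 and the controls of both guides pooled. Effects within experiments, their difference and the experiment contrast came from 1 fit of 4 genotype-by-experiment cells. DESeq2 1.42.0, other filters and scaling, replicate blocks and leaving out each library were alternatives. Totals of 31106042 to 71521173 counts make 1 count worth 0.0143 to 0.0324 CPM. Floors cover counting error only. No 2 libraries of the same genotype agreed within sampling noise (smallest chi-square per degree of freedom 3.11).

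The experiment pairs the libraries: deviations from genotype means correlated at 0.678 to 0.846 within experiments. Between experiments they correlated at −0.816 to −0.709, which follows from the first range, since deviations cancel within a genotype. The block took the common coefficient of variation from 0.29 to 0.108. Lengths and overlaps are from GENCODE 29 (GRCh38, not the authors' build) and matched 92.9% of symbols, holding at least 99.7% of counts. Promoters are RefSeq's on GRCh38.p14.

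The 39 genes and all lists were chosen with earlier results of these data known. Values in every library are given for receptor subunits and granule proteins, for up to 8 genes per direction with the largest change between experiments, and for the 3 per direction with the smallest p for knockout. One gene of the first list is not reported here. For other lists 2 genes per direction are named, and GATA1, NFE2, TAL1, RHOA, ROCK1 and WAS were named after their values were seen. The fits were tested on simulated data. The intervals of the knockout effect, the guide-number split and the shown promoters were added after seeing the data. Software also included limma 3.58.1, Python 3.11.15, pandas 2.3.3, Biopython 1.88 and matplotlib 3.10.9.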

Additional observations from a re-analysis of the deposited data

Results flagged for a closer look

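In groups of 4 libraries, 6 of 68 sets of CPM values (34 genes in 2 genotypes, 8.82%) had a highest or lowest library far from the others by Dixon's criterion, which flags about 1 in 20 by chance. ITGB3 was low in control library 3, at 101 CPM against 185 to 187 CPM in the other controls. MMRN1 was high in control library 4, at 40.1 CPM against 16.6 to 19.9 CPM, as were CD9 at 29 CPM against 9.61 to 11.5 CPM and PEAR1 at 117 CPM against 89.1 to 93 CPM. PPBP was high in knockout library 2, at 0.975 CPM against 0.445 to 0.473 CPM, and SPARC was low there, at 87.3 CPM against 96.9 to 98.6 CPM. Each group of 4 spans both experiments.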

How the results depend on the processing

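Of 680 alternatives over 59 results, 632 left sign and call as they were, 20 lost a call, 15 gained one and 13 changed sign. The changes were all among single genes. The number of genes called between experiments was 21 and stayed at 17 to 24, being 21 with the guide as a replicate block, and 16 of the 21 were called in all 15 settings. No setting called any of the 34 genes for knockout against control, by genotype, by experiment or by guide, and the replicate block left that count at 0. Without the count filter ITGB3, MMRN1 and CLEC1B also passed between experiments. Sign changes between experiments were in genes that did not pass: without single libraries, VWF ran from −0.47 to 0.41, PPBP from −0.05 to 0.50, F2R from −0.12 to 0.15, RAB27B from −0.38 to 0.06 and TMEM40 from −0.34 to 0.07. With the replicate block VWF was at −0.06, and at −0.07 in DESeq2 with that block. For knockout against control, MYL9 was at −0.04 without knockout library 2 and up to 0.23 without others. Depth limits PF4V1, TREML1, ALOX12 and P2RY12, which had at most 10 counts in a library. GP1BB has no counts and enters no test under any filter.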
